A study of Mus musculus with 2 samples.

Results

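The genes described here make, destroy and sense prostaglandins, and they were followed in mouse lung fibroblasts 14 days after bleomycin or saline. They were taken by symbol from a table of 16040 genes, and all 10 were found there. They are the cyclooxygenases Ptgs1 and Ptgs2, the terminal synthases Ptges and Ptgis, the catabolic enzyme Hpgd and the receptors Ptger2, Ptger3, Ptger4, Ptgfr and Ptgir. The bleomycin group received bleomycin, a DNA-damaging drug used to produce lung fibrosis in rodents, through the trachea, and the saline group received saline by the same route. Every mouse in both groups was of the Col1a2-EGFP strain, in which, as the name is read here, an enhanced green fluorescent protein reports activity of the type I collagen gene Col1a2. Lungs were dissociated with enzymes, cells that were lineage-negative and GFP-positive were sorted, and a short tag from near the 3′ end of each transcript was counted by the method called SAGE (serial analysis of gene expression). Each group is 1 library made from lung fibroblasts of 3 mice, and the sources used here do not state the age of the mice. The cells are defined by a collagen reporter, so fibroblasts with little Col1a2 activity fall outside the measurement.

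Prostaglandins are short-lived lipid signals made from arachidonic acid, which phospholipases release from membranes. A cyclooxygenase converts arachidonic acid to a common precursor, which a terminal synthase turns into a single product, such as prostaglandin E by the enzyme of Ptges or prostacyclin by that of Ptgis. The products act on G protein-coupled receptors of neighbouring cells or of the cell that made them, and the dehydrogenase encoded by Hpgd inactivates them. In lung fibroblasts, prostaglandin E acting through receptors that raise cyclic AMP is known to restrain proliferation, collagen synthesis and conversion to myofibroblasts, while signalling through the prostaglandin F receptor is known to favour fibrosis in mice given bleomycin.

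A count in these libraries is a count of tags, so the tags of the genes on which the results turn are shown first. The sources used here do not name the enzymes or the tag length of the kit. Anchoring at the sequence CATG and a tag of 27 bases were assumed, with the tag running from the CATG nearest the 3′ end. The tags below were read from GENCODE M21 transcripts (GRCm38) matched to the RefSeq records in the deposited table, on the sense strand, as CATG in capitals and the 23 bases that follow it in lower case. They are the tags that the annotation predicts, since the table itself holds no tag sequence.
Ptgs1: CATGaagctaataaaattctttctcca
Ptgs2: CATGatttttgtgaatatcaacctgct
Ptges: CATGatgataaaggactaaacctctga
Hpgd: CATGaaaagcggtgtaagactgaatgt
Ptgfr: CATGaacaatacctaggaatcactatt
Ptgir: CATGcgggagggcaagccagtgctcct
Each of these sequences, and that of each of the other members, occurred as an exact match in the transcripts of 1 gene only, so both cyclooxygenases and all the receptors have tags that tell them apart. For Ptgs2, Ptgis, Ptger3 and Ptgfr the predicted tag is the last tag of only 1 of 2 coding transcripts. The sources used here do not state whether tags of the other transcript were counted. In Ptgs1 the tag starts 29 bases from the transcript's end and in Ptgs2 195 bases from it, both in the 3′ untranslated region. The Hpgd transcript is unusual among the members, because its last CATG lies in the coding sequence, 1136 bases from the end. In Ptgir the distance is 817 bases. The sources used here do not state whether counting used strand, and Ptgs1, Ptgis, Ptger2, Ptger4 and Ptgfr overlap genes on the opposite strand in that annotation, so reads of those partners cannot be told apart from theirs. Hpgd and Ptges overlap other annotated genes on the same strand, which leaves the same uncertainty.

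The bleomycin library held 1099840 counts and the saline library 1080798. A single count was worth 0.922 CPM (tags scaled by library size) in the bleomycin library and 0.912 CPM in the saline library. Where a gene has 0 counts, 3 counts are taken as the limit of detection, which is 2.77 CPM in the bleomycin library and 2.74 CPM in the saline library. Fibroblast genes were abundant in both: Col1a2 had 5613 counts in the bleomycin library and 1636 in the saline library, and Col1a1, its partner chain, had 7925 and 2714. Pdgfra, a receptor of lung fibroblasts, had 323 counts in the bleomycin library and 509 in the saline library, and Acta2, smooth muscle actin, had 609 and 328. The leukocyte marker Ptprc had 1 count in the bleomycin library and 0 in the saline library, and the epithelial marker Epcam had 0 and 1. Other markers of these lineages were present and unequal. Macrophage and monocyte genes summed to 26 counts in the bleomycin library and 62 in the saline library, and to 16 and 7 without Lyz1, a lysozyme. Sftpc, a surfactant protein of alveolar type 2 cells, had 7 and 154, and Scgb1a1, an airway secretory protein, had 12 and 46. Endothelial markers were unequal, with 39 counts in the bleomycin library and 615 in the saline library summed over 14 genes, of which Emcn was at 0 in both. With 1 library per group no difference here has a replicate check, and the exact binomial test used compares the reads of the libraries, not the conditions. In bulk RNA of sorted cells, fewer cells of a type and less RNA per cell cannot be told apart.

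In the bleomycin library the cyclooxygenase Ptgs1 was called higher, at 2.63-fold. The prostaglandin F receptor Ptgfr and the prostacyclin receptor Ptgir were called lower, at 6.78-fold and 6.26-fold. The catabolic enzyme Hpgd was also called lower, at 3.96-fold when 3 counts stand for its 0 (exact limit 2.75-fold). Ptgs2 at 1.90-fold lower and Ptges at 1.97-fold higher stood just inside the 2-fold limit. Ptgis, Ptger2 and Ptger4 were not called, and Ptger3 had too few counts to test. A call required an adjusted p under 0.05 (exact binomial test, Benjamini-Hochberg over 9369 genes with at least 10 counts in sum) together with a difference of 2-fold or more, up or down. Of the 10 members, 9 had enough counts to be tested, 1 was called higher (Ptgs1) and 3 were called lower (Hpgd, Ptgfr and Ptgir). Over all tested genes 8.08% were called higher and 8.52% lower, which is 16.6% in either direction. Hpgd, Ptgir and Ptgfr had 10 or more counts only in the saline library, so the number called among tested members is given as a description. The median log2 ratio of the 9 tested members was −0.18, beside 0.02 over all tested genes. Counting Ptgs2 and Ptges, 6 tested members had an adjusted p under 0.05 at any ratio, as did 27.9% of all tested genes.

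**Figure D1:**
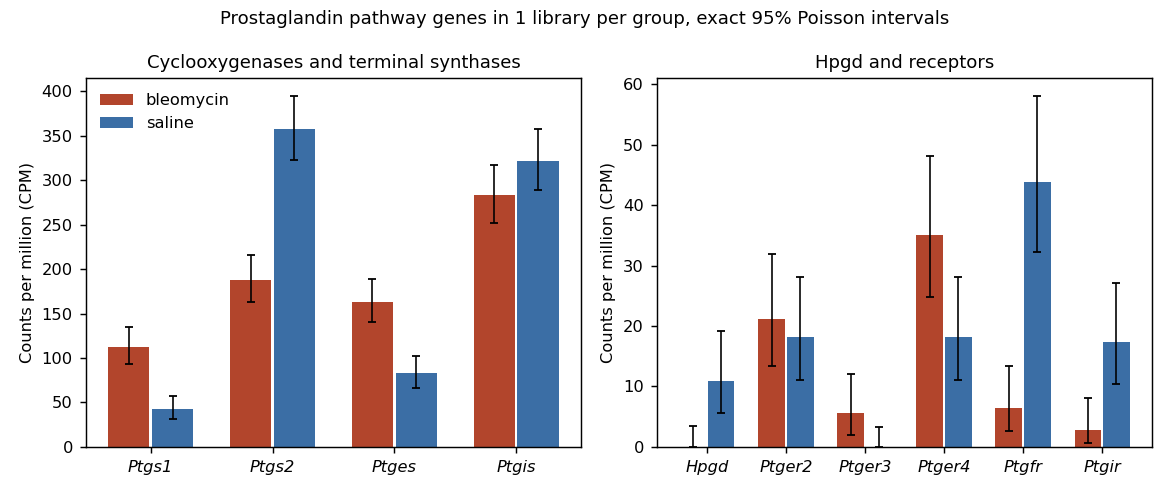
Levels of the 10 genes in CPM in the bleomycin (left bar of each pair, red) and saline (right bar, blue) libraries, with exact 95% Poisson intervals that cover counting error only. Ptgs2 is the highest of the 4 enzymes on the left in saline at 358 CPM and stands at 188 CPM in bleomycin, while Ptgs1 stands at 113 CPM in bleomycin and 42.9 CPM in saline. On the right, Hpgd is at 0 in bleomycin and Ptger3 is at 0 in saline.

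The cyclooxygenases commit arachidonic acid to prostaglandins. Ptgs1, which encodes the constitutive cyclooxygenase of many tissues, had 122 counts in the bleomycin library and 47 in the saline library. These are 113 CPM (exact 95% Poisson interval 93.4 to 134) and 42.9 CPM (31.5 to 57.0), and the intervals do not overlap. Ptgs1 was 2.63-fold higher in the bleomycin library (exact 95% interval of the ratio 1.86 to 3.76, exact binomial test with Benjamini-Hochberg adjustment, adjusted p = 6.58e-08). Platelets and mast cells are also rich in this enzyme. Over 6 platelet genes the bleomycin library had 16 counts and the saline library 17, with Pf4, a platelet chemokine, at 2 and 0, and over 7 mast cell genes 7 and 22, with Cpa3, a mast cell protease, at 1 and 1. Without Kit, which other cells also express, the mast cell sum was 5 in each library. Of genes of fibrosis-associated lung fibroblasts, 14 of 14 tested were called higher. Their sums were 19323 counts in the bleomycin library and 1013 in the saline library. Spp1, osteopontin, gave 12155 and 57 of these, and the other 14 genes had 7168 and 956. That list rests on general knowledge of the bleomycin model and was chosen with earlier results of these data known. Its calls are therefore a description, and its part in the Ptgs1 result was not tested.

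Ptgs2, which encodes the cyclooxygenase induced by cytokines, growth factors and stress, had a ratio below 1, with 204 counts in the bleomycin library and 392 in the saline library. Its levels were 188 CPM (163 to 216) and 358 CPM (323 to 395), again without overlap. At 1.90-fold lower (1.60 to 2.26) it passed the exact test (adjusted p = 7.27e-13 by Benjamini-Hochberg) but not the required ratio of 2, and it is not counted as a call. Ptgs2 is also an immediate early gene, one that is transcribed within minutes of a stimulus, tissue dissociation included. Of 20 other tested immediate early and dissociation-induced genes, 7 were called lower and 0 higher in the bleomycin library, with a median log2 ratio of −0.81 beside 0.02 over all tested genes. Nr4a1, an orphan nuclear receptor of this class, had 311 counts in the bleomycin library and 1391 in the saline library, and Atf3, a stress-induced transcription factor, had 37 and 140. The part of that class difference in the Ptgs2 value was not tested.

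The balance of the cyclooxygenases also differed between the libraries. Each transcript gives 1 tag in SAGE, so counts do not scale with transcript length, although tags of different sequence may be recovered unequally. Ptgs2 made up 62.6% of the 326 cyclooxygenase counts in the bleomycin library (exact Clopper-Pearson 95% interval 57.1 to 67.8) and 89.3% of the 439 in the saline library (86.0 to 92.0). The summed counts of both genes had a ratio of 0.751 (0.649 to 0.869). These shares lie within a library and do not depend on how the libraries were scaled. Ptgs2 still supplied more counts than Ptgs1 in both libraries.

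Terminal synthases decide which prostaglandin is made. Ptges, which encodes the inducible microsomal prostaglandin E synthase, had 177 counts in the bleomycin library and 91 in the saline library, or 163 CPM (140 to 189) and 83.0 CPM (66.8 to 102). Its ratio was 1.97 (1.52 to 2.56, exact binomial test, adjusted p = 1.10e-06), which falls just short of 2, so it is not counted as a call. Ptgis, the prostacyclin synthase, had 307 counts in the bleomycin library and 353 in the saline library. Its intervals of 252 to 317 CPM and 289 to 357 CPM overlapped, and its ratio of 0.880 (0.752 to 1.03) did not pass the exact test (adjusted p = 0.231). Ptges therefore made up 36.6% of the 484 counts of this pair in the bleomycin library (32.3 to 41.0) and 20.5% of the 444 in the saline library (16.8 to 24.6), with most counts from Ptgis in both. Ptges is commonly induced together with Ptgs2, and here the ratios of bleomycin over saline were 1.97 for Ptges and 0.526 for Ptgs2. Mesothelium, which also makes prostacyclin, had 146 marker counts in the bleomycin library and 170 in the saline library over 6 genes, of which Upk1b, a uroplakin, gave all but 15 and 16, and Msln, mesothelin, had 2 and 3. Endothelial markers had 39 and 615 counts over 14 genes, with 11 of 11 tested called lower. Smooth muscle markers had 2879 and 2253 counts over 10 genes, with 4 called lower and 1 higher. The part of mesothelial, endothelial and smooth muscle cells in the Ptgis value and in the Ptges share was not tested.

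Hpgd encodes the dehydrogenase that takes the first step in inactivating prostaglandins and is the only catabolic enzyme among the members. It had 0 counts in the bleomycin library and 12 in the saline library. The exact upper limit of its level in the bleomycin library is 3.40 CPM, beside 10.9 CPM (5.66 to 19.1) in the saline library. Hpgd was 3.96-fold lower when 3 counts were set against the 12. The exact interval, in which both counts carry error, reaches as little as 2.75-fold lower (exact binomial test, adjusted p = 0.00301). Lung endothelium and alveolar epithelium also express Hpgd. Summed over the marker lists, 14 endothelial genes had 39 counts in the bleomycin library and 615 in the saline library, and 8 alveolar type 2 genes had 32 and 175, with Sftpc, their surfactant protein, at 7 and 154. Without Sftpc the other 7 alveolar type 2 genes had 25 counts in the bleomycin library and 21 in the saline library. Etv5, a transcription factor, gave 22 and 10 of these, and Sftpa1, another surfactant protein, gave 3 and 8. The part of endothelial and alveolar type 2 cells in the Hpgd result was not tested.

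**Figure D2:**
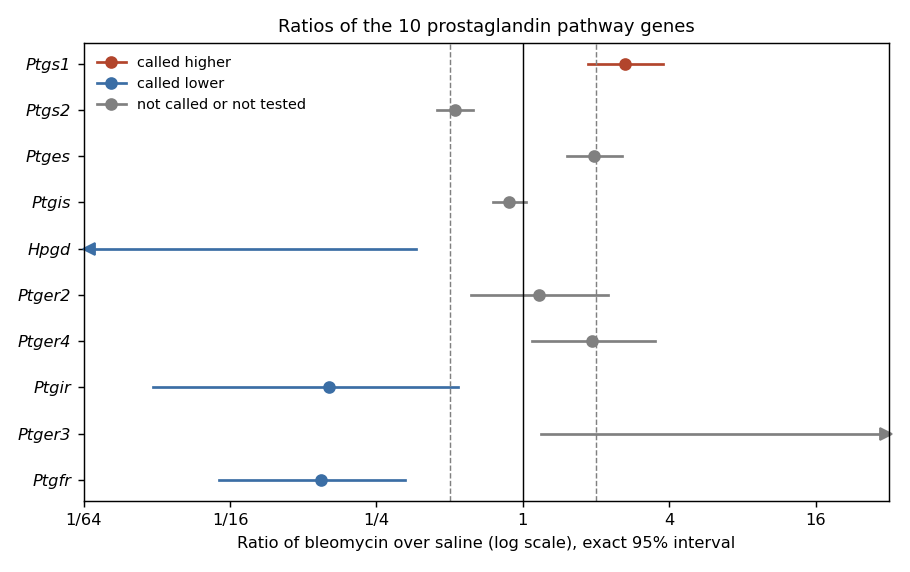
Ratio of bleomycin over saline for each of the 10 genes on a log axis, ordered by role from cyclooxygenases down to receptors, with exact 95% intervals. Where a library is at 0, no point is drawn and the interval ends in an arrow. Dashed lines mark the 2-fold ratios. Ptgs1 (2.63) lies to the right, Hpgd, Ptgir and Ptgfr lie to the left, and Ptgs2, Ptges and Ptger4 have points just inside the dashed lines.

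Among the receptors, those whose signal raises cyclic AMP are Ptger2, Ptger4 and Ptgir. Ptger2, a prostaglandin E receptor of this kind, had 23 counts in the bleomycin library and 20 in the saline library, and its ratio of 1.16 (0.611 to 2.23) did not pass the exact test (adjusted p = 0.81). An interval this wide leaves its direction undetermined at this depth. Ptger4, the other prostaglandin E receptor coupled to cyclic AMP, had 38 counts in the bleomycin library and 20 in the saline library. Its ratio was 1.92 (1.09 to 3.49) with an adjusted p of 0.0609 by the exact test, so it was not called. Ptgir, the prostacyclin receptor, had 3 counts in the bleomycin library and 19 in the saline library, which are 2.77 CPM (0.571 to 8.09) and 17.3 CPM (10.4 to 27.1). It was 6.26-fold lower (1.84 to 33.0, exact binomial test, adjusted p = 0.00491), and its ligand's synthase, Ptgis, was not called. Ptgir is also expressed by smooth muscle and other vascular cells. Of 10 tested smooth muscle markers 4 were called lower and 1 higher, with a median log2 ratio of −0.96. They summed to 2879 counts in the bleomycin library and 2253 in the saline library. Tagln (1220 and 814), Acta2 (609 and 328) and Des (571 and 169) carry that sum. Among those called lower, Myh11 had 106 and 237 counts and Hhip 51 and 267. Of 8 tested pericyte markers 2 were called lower and 1, Postn, higher. Those called lower were Higd1b, with 6 counts in the bleomycin library and 44 in the saline library, and Cox4i2, with 4 and 43. The whole list summed to 789 and 452 counts. Postn, periostin, which is also on the list of fibrosis-associated fibroblast genes, carries that sum, and the other 8 pericyte genes in the table had 151 counts in the bleomycin library and 239 in the saline library. Endothelial markers had 39 counts in the bleomycin library and 615 in the saline library over 14 genes, with 11 of 11 tested called lower. The part of smooth muscle cells, pericytes and endothelium in the Ptgir result was not tested.

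The other receptors signal through different G proteins. Ptgfr, the prostaglandin F receptor, which raises intracellular calcium, had 7 counts in the bleomycin library and 48 in the saline library. Its levels were 6.46 CPM (2.60 to 13.3) and 43.8 CPM (32.3 to 58.0), which do not overlap, and it had the most counts of the 5 receptors in the saline library. Ptgfr was 6.78-fold lower (3.05 to 17.8, exact binomial test, adjusted p = 1.92e-07). Genes that mark alveolar fibroblasts were lower in the same library, with 11 of 15 tested called lower and 1 called higher. Their sums were 3293 counts in the bleomycin library and 15171 in the saline library, and 2096 and 3848 without Inmt, the most abundant. Genes of adventitial fibroblasts had 12 of 16 called lower and 0 higher. Their sums were 7647 and 32216 counts, and 5099 and 12870 without Gsn, the most abundant. The part of either list in the Ptgfr result was not tested. Ptger3, a prostaglandin E receptor that lowers cyclic AMP, had 6 counts in the bleomycin library and 0 in the saline library. With 6 counts in all it was not tested, and it was 2.02-fold higher when 3 counts stand for the 0 (exact limit 1.19). Mouse Ptger3 has several splice forms with different last exons, and the predicted tag belongs to 1 of the 2 coding transcripts in the annotation.

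Together the 5 receptors had 77 counts in the bleomycin library and 107 in the saline library, a ratio of 0.728 (0.536 to 0.985), and their make-up differed. The prostaglandin E receptors Ptger2, Ptger3 and Ptger4 gave 87.0% of them in the bleomycin library (exact 95% interval 77.4 to 93.6) and 37.4% in the saline library (28.2 to 47.3). Ptgfr gave 9.09% (3.73 to 17.8) and 44.9% (35.2 to 54.8). The receptors that raise cyclic AMP gave 83.1% in the bleomycin library (72.9 to 90.7) and 55.1% in the saline library (45.2 to 64.8), while their summed counts of 64 and 59 had a ratio of 1.10 (0.758 to 1.59). The larger share in the bleomycin library stands beside 7 Ptgfr counts, against 48 in the saline library, and beside a summed ratio of the cyclic AMP-coupled receptors whose interval includes 1. When the receptors Ptger1 (5 counts and 1), Tbxa2r (18 and 30) and Gpr44 (0 and 3) were added to the total, the share was 64.0% and 41.8%. Ptgdr, a prostaglandin D receptor, was at 0 in both libraries.

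**Figure D3:**
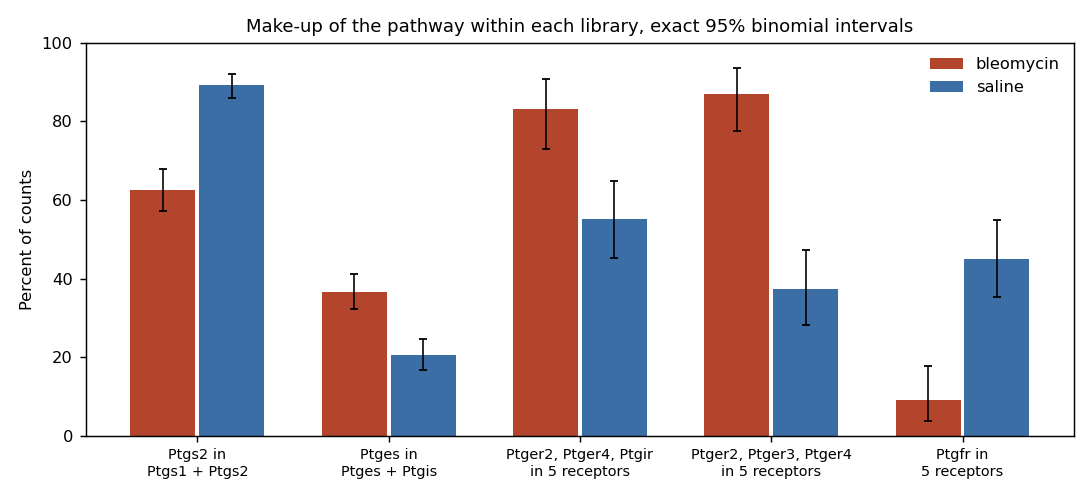
Shares of counts within each library, in percent, with exact 95% binomial intervals; bleomycin is the left bar (red) and saline the right bar (blue) of each pair. The Ptgs2 share of cyclooxygenase counts is 62.6% in bleomycin and 89.3% in saline, and the prostaglandin E receptors give 87.0% and 37.4% of receptor counts.

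**Figure D4:**
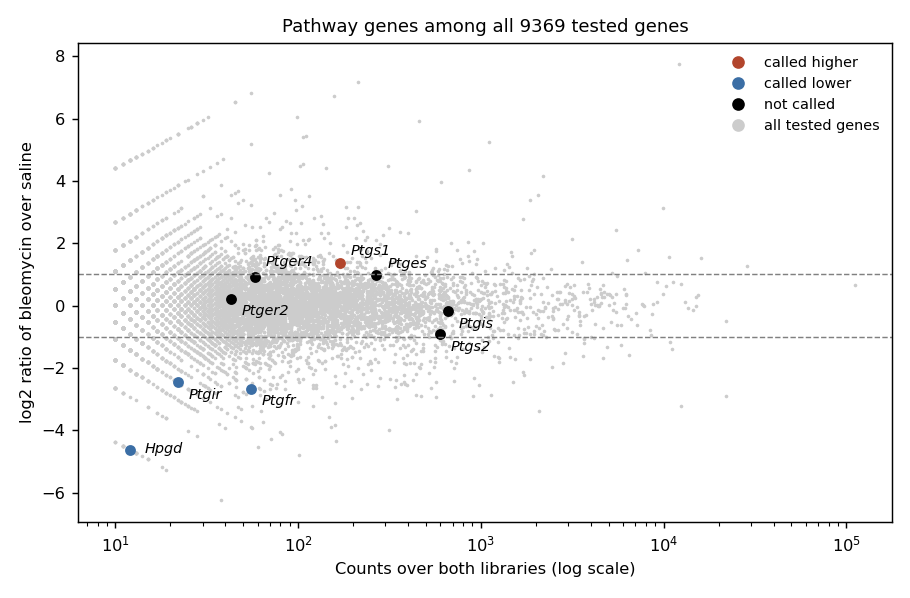
The log2 ratio of bleomycin over saline against the counts over both libraries (log axis) for all 9369 tested genes in grey, with the 9 tested members named; dashed lines mark the 2-fold ratios. Ptgs2 and Ptgis lie among abundant genes between the lines, whereas Ptgir and Hpgd lie where few counts spread the ratios of all genes widely.

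Genes around the pathway, regulators of Ptgs2 included, were read from 9 further lists with 119 tested genes, of which 9 were called higher and 16 lower. The immediate early genes described above gave 7 of the lower calls. Over all tested genes 8.08% were called higher and 8.52% lower. Upstream, 12 tested genes that release or recycle arachidonic acid had 3 called higher and 0 lower, with a median log2 ratio of −0.35. Mgll, the lipase that turns the endocannabinoid monoacylglycerol into arachidonic acid, had 168 counts in the bleomycin library and 49 in the saline library and was 3.47-fold higher (2.51 to 4.87). Acsl4, which attaches arachidonic acid to coenzyme A, was 2.85-fold higher (1.39 to 6.28), and Plaa, a protein named as an activator of phospholipase, was 2.09-fold higher (1.31 to 3.42). Pla2g16, a phospholipase and the most abundant member without a call, had 50 and 60 counts. Pla2g4a, the cytosolic phospholipase best known for supplying cyclooxygenases and named here for its role after its values were seen, had 21 counts in the bleomycin library and 32 in the saline library and did not pass the exact test (adjusted p = 0.334).

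Other terminal synthases and carbonyl reductases had 8 tested genes, 1 called higher and 1 lower. Akr1b8, an aldo-keto reductase, had 147 counts in the bleomycin library and 51 in the saline library and was 2.91-fold higher (2.11 to 4.09). Cbr2, a carbonyl reductase abundant in mouse lung, had 16 and 59 and was 3.65-fold lower (2.07 to 6.79). Of 3 tested alveolar type 2 markers 1 was called lower, Sftpc, with 7 and 154 counts. Of 5 tested alveolar type 1 and airway markers 1 was called lower, Scgb1a1, with 12 and 46. The part of epithelial cells in the Cbr2 value was not tested. Ptges3, a chaperone partner with prostaglandin E synthase activity, had 177 and 238 counts and was not called. The synthases of prostaglandin D and thromboxane were near the limit of detection: Ptgds was at 0 in both libraries, Hpgds had 0 counts in the bleomycin library and 4 in the saline library, and Tbxas1 had 0 and 1. When Ptges2, Ptges3, Ptgds, Hpgds and Tbxas1 were added to Ptges and Ptgis, Ptges made up 25.6% of counts in the bleomycin library and 12.8% in the saline library. With the whole list added, the aldo-keto and carbonyl reductases included, its share was 17.9% and 9.07%.

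Genes of transport and further inactivation had 6 tested members, 1 called higher and 1 lower. Slco4a1, an organic anion transporter, had 28 counts in the bleomycin library and 0 in the saline library. It was 9.44-fold higher when 3 counts stand for the 0 (exact limit 7.18). Hsd11b1, the reductase that regenerates active glucocorticoid inside cells and was listed here beside the dehydrogenases, was 2.60-fold lower (2.31 to 2.92), with 393 counts in the bleomycin library and 1032 in the saline library. Slco3a1, another organic anion transporter, had 95 and 145 counts and was not called. Slco2a1, the main carrier that takes prostaglandins into cells and named for its role after its values were seen, had 48 counts in the bleomycin library and 27 in the saline library, a ratio of 1.80 (1.10 to 3.00) that did not pass the exact test (adjusted p = 0.0531). Of the other prostanoid and lipid receptors 3 were tested and 0 were called, and Ptgfrn, a partner of the prostaglandin F receptor, had 166 and 178 counts. Leukotriene and epoxide genes had 1 of 7 called higher, Ephx2, a hydrolase of fatty acid epoxides, at 12 counts in the bleomycin library and 1 in the saline library, and 1 called lower, Cyp2j9, an epoxygenase, at 13 and 39. Lta4h, the hydrolase that makes leukotriene B, had 60 and 64 counts, and Alox5 and Alox5ap, which start leukotriene synthesis, were at 0 in both libraries.

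Downstream of the receptors, 28 tested genes of cyclic AMP signalling had 3 called lower and 0 higher, with a median log2 ratio of −0.14. Akap12, a scaffold that anchors protein kinase A, had 35 counts in the bleomycin library and 204 in the saline library and was 5.76-fold lower (4.01 to 8.50). Grk5, a kinase that desensitises receptors, was 2.35-fold lower (1.66 to 3.36), and Creb1, the transcription factor that responds to cyclic AMP, was 2.15-fold lower (1.29 to 3.69). Gnas, the G protein subunit that links these receptors to adenylyl cyclase, had 1607 counts in the bleomycin library and 1855 in the saline library, within the 2-fold limit.

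Genes known to induce or restrain Ptgs2 gave calls in both directions. Of 21 tested inducers and their receptors and factors, 1 was called higher and 1 lower, with a median log2 ratio of 0.0040. Tgfb1, the transforming growth factor that raises Ptgs2 in many fibroblasts, had 139 counts in the bleomycin library and 36 in the saline library and was 3.90-fold higher (2.69 to 5.80). Nfkbiz, an inducible nuclear partner of NF-kappa B, was 2.38-fold lower (1.79 to 3.20), and Nfkbia, its inhibitor, had 777 and 1303 counts and stayed within the 2-fold limit. The cytokine genes Il1b and Tnf, looked at after the values were seen, had 5 counts and 1 in the bleomycin library, against 1 and 0 in the saline library. Of 14 tested genes of glucocorticoid response and messenger RNA decay, 2 were called higher and 2 lower, with a median of −0.29. Fkbp5, a glucocorticoid-induced chaperone, had 95 and 10 counts and was 9.61-fold higher (5.0 to 20.7), and Anxa1, the annexin that inhibits phospholipase, was 2.07-fold higher (1.86 to 2.31). Zfp36, which encodes the protein tristetraprolin that speeds decay of AU-rich messages such as that of Ptgs2, had 1097 counts in the bleomycin library and 3551 in the saline library and was 3.20-fold lower (2.99 to 3.43). It is itself an immediate early gene. Nr3c1, the glucocorticoid receptor, was 2.06-fold lower (1.51 to 2.82), and Dusp1, a phosphatase of MAP kinases, had 633 and 1079 counts and was not called.

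**Figure D5:**
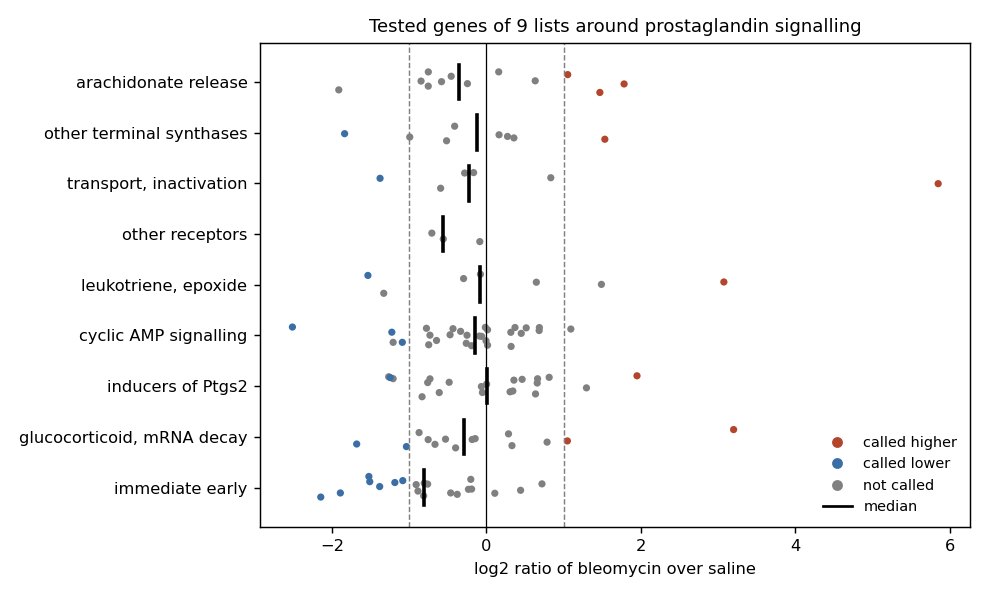
Log2 ratio of bleomycin over saline for the tested genes of the 9 lists around the pathway, 1 point per gene, with the median of each list as a black bar and dashed lines at 2-fold ratios. The immediate early genes have a median of −0.81 with 7 called lower. The medians of the other lists run from −0.56 (other receptors, 3 tested genes) to 0.0040 (inducers of Ptgs2), beside 0.02 over all tested genes.

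The calls of members rest on counting error alone, and an assumed variation between preparations removes some of them. In edgeR's exact test with an assumed coefficient of variation of 0.2, Hpgd and Ptgfr remained called, while Ptgs1 (adjusted p = 0.0619) and Ptgir (adjusted p = 0.0651) did not, and with 0.4 no member was called. Ptgs2 and Ptges, which passed the exact binomial test, had adjusted p values of 0.237 and 0.235 at 0.2.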

How the data were processed

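SOLiD SAGE libraries were made from total RNA of sorted lung fibroblasts, per the labels' protocols. BWA 0.6.2 and the build mm9 are listed in the submitters' processing notes without a stated role. The deposited table gives a whole-number tag count per gene and library; the sources used here do not state how tags were assigned or whether counts were scaled, so intervals hold only for raw counts. As no molecular identifiers are named, they cover counting error only. After removal of a blank line, and with 21 symbols restored from date format, 16040 genes remained. Library sizes were scaled with TMM factors of edgeR 4.0.16 under R 4.3.3 (0.986 for bleomycin, 1.01 for saline). edgeR's quasi-likelihood test could not be fitted without replicates. Genes with at least 10 counts in sum were compared with a two-sided exact binomial test (scipy 1.17.1), with Benjamini-Hochberg adjustment over 9369 genes. Genes were called at an adjusted p under 0.05 and a 2-fold ratio with 0.5 added to each count; log2 ratios carry the same 0.5. Printed ratios are unadjusted, with Clopper-Pearson 95% intervals. The procedure was run on simulated counts drawn with counting error alone. As these hold no variation between preparations, that run cannot show how the calls fare under such variation.

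Named genes are the 10 members, up to 3 called genes per direction with the largest log2 ratio and the most abundant uncalled gene of each pathway list, and fixed identity markers (Pdgfra, Pecam1, Pf4, Cpa3, Msln and Acta2 among them). Further markers from the cell type lists were named after their values were seen, and other genes so named are said to be. Members and lists were chosen with earlier results of these data known. Older symbols were matched by hand-listed alternatives. Because the build of the sequences differs from mm9, no coordinates are given. Alternatives changed scaling (total counts, DESeq2 1.42.0), the count minimum, the prior count, the ratio, the adjustment and the error model.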

Additional observations from a re-analysis of the deposited data

How the results depend on the processing

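No paired analysis was possible because each group is 1 library, and leaving out a replicate was not possible for the same reason. All 10 members kept their direction and their side of the call under scaling by total counts or DESeq2 size factors, no minimum count and a prior count of 5. Main calls were 1 member higher and 3 lower, 9 list genes higher and 16 lower, and 757 genes higher and 798 lower. A minimum of 50 counts left 1 member lower (Hpgd and Ptgir no longer tested), and 396 genes higher and 484 lower. Requiring a 3-fold ratio left 0 members higher, 5 list genes higher and 5 lower, and 443 and 445 genes. Bonferroni adjustment left 1 member lower (Hpgd and Ptgir lost), and 288 and 333 genes. edgeR's exact test with an assumed coefficient of variation of 0.2 left 0 members higher, 5 and 8 list genes, and 274 and 333 genes; with 0.4 it left 0 members higher and 0 lower, 0 and 0 list genes, and 21 and 8 genes. With Ptges2, Ptges3, Ptgds, Hpgds and Tbxas1 added, the Ptges share was 25.6% in bleomycin and 12.8% in saline; with the whole list of other synthases and reductases, an alternative chosen after seeing the data, it was 17.9% and 9.07%. With all measured prostanoid receptors the cyclic AMP-coupled share was 64.0% and 41.8%. All these shares were still larger in the bleomycin library; these totals hold more genes by construction. Among the other named genes 53 values lost a call and 268 kept their side, with none reversed. Depth limits Ptger3, Hpgd, Ptger2 and Ptgir most.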
